A study of Mus musculus with 24 samples.

Results

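The sterol synthesis and SREBP2 genes were 8 of the 55291 genes in the count table and were chosen by name. They are *Srebf2*, which encodes the transcription factor SREBP2, the enzyme genes *Hmgcs1*, *Idi1*, *Fdft1*, *Sqle*, *Lss* and *Cyp51*, and *Insig1*, which encodes a retention factor of the SREBP pathway. They were followed in 24 RNA-seq libraries from proliferating mouse C2C12 myoblasts, an immortalized muscle precursor line, although the sample labels call the cells primary mouse myoblasts. The 4 lines were a scramble shRNA control (scr) and knockdowns (KD) of *Baf180*, *Baf250a* and *Brd9*, which encode subunits found in the PBAF, BAF and ncBAF forms of the SWI/SNF chromatin remodeling complex, respectively. Each line was left without added metal (NT) or grown with 100 µM CuSO4 (Cu) or 50 µM ZnSO4 (Zn) for 48 h, with 2 libraries in each of the 12 groups. According to the methods the lines were puromycin-selected pools that carry lentiviral shRNA, so every line, scr included, had been transduced, while the labels describe lipofectamine knockdowns. Which shRNA each library carries is not given in the sources used here. Libraries were grouped by their titles, because a treatment tag in the labels contradicts the titles of some libraries. The study describes the replicates as independent biological ones. P-values rest on the spread between libraries of the same group, estimated over all groups in a fit and partly shared over genes. Whether the 2 libraries of a group came from separately made lines is not given in the sources used here.

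The sterol pathway builds cholesterol from acetyl-CoA through mevalonate and squalene, and myoblasts need the product for their membranes. When membrane sterol is low, the escort protein SCAP carries SREBP2 from the endoplasmic reticulum to the Golgi, where proteases release the part that enters the nucleus and raises transcription of the enzyme genes and of *Srebf2* itself. When sterol is plentiful, INSIG proteins hold SCAP and SREBP2 back in the endoplasmic reticulum, and oxysterols activate the LXR receptors, which raise cholesterol efflux genes such as *Abca1*. Because SREBP2 is controlled by cleavage, the level of *Srebf2* RNA does not report its activity, and nothing in these libraries measures the cleaved protein or cholesterol.

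The 250 bases before the RefSeq gene start (RefSeq table, GRCm38.p6) are shown for *Hmgcs1*, which rose in all 3 untreated KD lines, for *Insig1* and *Lss*, which separated the *Baf180* from the *Baf250a* KD, and for *Srebf2*, which was not called without metal. Each is cut at the outermost annotated transcript start and written 5′ to 3′ on the gene's own strand. Capitals mark TCACNCCAC, a consensus of the sterol regulatory element that SREBPs bind, and CCAAT, the box bound by the co-factor NF-Y, on either strand, where CCAAT reads ATTGG on the other strand.
Hmgcs1 promoter (chr13:119690101-119690350, plus strand): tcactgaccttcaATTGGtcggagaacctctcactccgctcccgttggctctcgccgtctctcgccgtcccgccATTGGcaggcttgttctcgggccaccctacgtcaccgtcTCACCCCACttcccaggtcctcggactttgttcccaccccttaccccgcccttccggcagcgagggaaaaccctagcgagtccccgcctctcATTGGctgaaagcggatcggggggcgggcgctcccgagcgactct
Insig1 promoter (chr5:28071162-28071362, plus strand): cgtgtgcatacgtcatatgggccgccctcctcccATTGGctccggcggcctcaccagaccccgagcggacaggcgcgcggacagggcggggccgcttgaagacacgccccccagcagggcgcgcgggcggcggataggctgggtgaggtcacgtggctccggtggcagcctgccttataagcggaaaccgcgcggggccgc
Lss promoter (chr10:76531355-76531587, plus strand): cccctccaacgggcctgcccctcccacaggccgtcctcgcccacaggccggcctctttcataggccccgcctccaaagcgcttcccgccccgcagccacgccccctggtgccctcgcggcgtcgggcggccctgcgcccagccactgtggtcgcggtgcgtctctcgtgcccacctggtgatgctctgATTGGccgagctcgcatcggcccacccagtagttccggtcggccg
Srebf2 promoter (chr15:82147019-82147180, plus strand): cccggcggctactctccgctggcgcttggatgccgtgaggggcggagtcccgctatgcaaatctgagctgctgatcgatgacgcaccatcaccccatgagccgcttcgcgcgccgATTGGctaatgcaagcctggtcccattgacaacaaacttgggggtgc

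Of the 8 members, 6 had a promoter in the RefSeq table, and *Fdft1* and *Sqle* did not. In windows from 250 bases before to 50 bases after the gene start, TCACNCCAC was found in 1 of those 6 members, *Hmgcs1*, where it begins 137 bases before the start. It occurred in 1.24% of all 32851 promoters in the table. CCAAT was found in all 6 members with an entry and in 37.4% of all promoters, and the 2 motifs do not overlap each other. *Hmgcs1* held both motifs, as did 0.441% of all promoters. These matches describe letters in a window and were not tested as binding sites.

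On a per-length scale, CPM (a gene's counts scaled to a fixed library total after TMM normalization) divided by exon length in kilobases (RPKM), *Srebf2* was the most abundant member in untreated scr myoblasts at 67.4 ± 6.1 (SD, n = 2). *Sqle*, the gene of squalene epoxidase, followed at 35.1 ± 0.89. *Insig1* at 21.2 ± 0.90 and the demethylase gene *Cyp51* at 21.0 ± 0.73 overlapped between replicates and could not be ordered. Below them stood *Hmgcs1* at 16.4 ± 1.6, *Fdft1* at 13.3 ± 2.1, *Lss* at 4.49 ± 0.59 and *Idi1* at 0.627 ± 0.19. The order changed with the line. In the *Baf180* KD, *Insig1* (46.6 ± 0.35) and *Hmgcs1* (40.1 ± 1.7) had passed *Sqle* (37.5 ± 3.2) by their means, although the *Hmgcs1* and *Sqle* replicates overlapped. In the *Baf250a* KD, *Cyp51* ranked next after *Srebf2*, at 41.7 ± 2.4 against 65.1 ± 3.1. In the *Brd9* KD the order began as in scr, with *Srebf2* at 68.2 ± 4.4, *Sqle* at 33.6 ± 1.2 and *Insig1* at 28.8 ± 0.69.

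The targeted genes were lower in their own lines, with a log2 fold change of -0.76 for *Pbrm1* (Baf180), -1.53 for *Arid1a* (Baf250a) and -0.76 for *Brd9*, all called at a Benjamini-Hochberg adjusted p under 0.05 in the edgeR quasi-likelihood test used throughout. Libraries held 495778 to 75179394 counts with a median of 22158430, and the next lowest after the shallow *Baf250a* Zn replicate 2 held 12719173. In that shallow library the members' counts ran from 1 for *Idi1* to 282 for *Srebf2*, so the members' Zn results in *Baf250a* are given with and without it. Summed levels of 8 myoblast markers were 2836 to 3975 CPM in scr and lower in all KD lines (1905 to 2139 in *Baf180*, 1534 to 1674 in *Baf250a* and 1967 to 2416 in *Brd9*). *Des*, the most abundant of them, made up most of each sum, and the list was mixed, with 3 genes higher and 4 lower in untreated *Baf180*, 3 and 5 in *Baf250a* and 2 and 4 in *Brd9*. Of all genes, 21.7%, 28.9% and 15.1% were called higher and 19.3%, 28.9% and 14.1% lower in these comparisons. The adhesion gene *Vcam1* was higher in all 3 lines (2.91, 3.03 and 1.58 on the log2 scale). Sums of 6 differentiated muscle markers were 69.9 to 104.7 CPM in scr, 116.9 to 168.6 in *Baf180* without overlap, 58.9 to 73.2 in *Baf250a* and 32.2 to 38.6 in *Brd9*. In untreated *Baf180*, 3 of these 6 were called higher and 0 lower, among them *Myog* (2.36) and *Myh3* (2.76). Adipocyte and hepatocyte marker sums stayed at or below 0.787 and 0.218 CPM, and macrophage and endothelial sums at or below 9.72 and 6.18 CPM. In bulk RNA, fewer cells of a kind and less RNA per cell cannot be told apart, and whether the marker levels had a part in the results below was not tested.

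In untreated cells, the *Baf180* KD had higher RNA of most of the pathway, from the enzyme at its entry to the enzymes after squalene. Of the 8 members, 6 were called higher and 0 lower, where 21.7% of all tested genes were called higher, and the members' median log2 fold change was 0.76 against 0.03 over all genes. *Hmgcs1*, *Idi1*, *Fdft1*, *Lss*, *Cyp51* and *Insig1* rose, and *Srebf2* and *Sqle* did not pass the test. The 3 KD comparisons share the same scr libraries, so their results are not independent of each other. Over all genes, the untreated fold changes fell with GC content (Spearman -0.29, -0.25 and -0.40 across genes in *Baf180*, *Baf250a* and *Brd9*). With a correction for GC content and length, the 6 members stayed called in *Baf180*. For the other listed genes below, the part of this trend was not tested.

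*Hmgcs1* encodes the cytosolic HMG-CoA synthase, an enzyme of the first steps of the mevalonate pathway (GRCm38 chr13:119690379-119708260, plus strand). Its level was 80.8 and 70.2 CPM in untreated scr libraries and 190 and 179 CPM in the *Baf180* KD. Both KD libraries lay more than 2-fold above both controls, with a log2 fold change of 1.31 (SE 0.11, adjusted p = 3.7e-06). The same gene stood at 147 and 143 CPM in the *Baf250a* KD, a log2 fold change of 0.94 (SE 0.11, adjusted p = 1.24e-05). In the *Brd9* KD it was 111 and 120 CPM, a log2 fold change of 0.63 (SE 0.12, adjusted p = 0.00657). It was thus called higher in all 3 KD lines, with no overlap between KD and scr replicates, but the *Brd9* call was lost without *Brd9* NT replicate 2 (0.54, adjusted p = 0.0823).

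*Idi1*, the gene of isopentenyl diphosphate isomerase, was the member with the lowest level and the widest error (chr13:8885501-8892451, plus strand). It read 2.68 and 1.72 CPM in untreated scr, 5.33 and 7.0 in the *Baf180* KD, 3.60 and 4.76 in the *Baf250a* KD and 4.01 and 4.46 in the *Brd9* KD. Every KD library was above both controls. The log2 fold change was 1.53 for *Baf180* (SE 0.29, adjusted p = 0.00148), 0.94 for *Baf250a* (SE 0.29, adjusted p = 0.0139) and 0.98 for *Brd9* (SE 0.30, adjusted p = 0.0398). The *Baf250a* call was lost without scr NT replicate 2 (0.62, adjusted p = 0.0792) and without *Baf250a* NT replicate 2 (0.73, adjusted p = 0.159). The *Brd9* call was lost without scr NT replicate 2 (0.66, adjusted p = 0.204) or without *Brd9* NT replicate 1 (1.06, adjusted p = 0.107) or 2 (0.86, adjusted p = 0.21), and DESeq2 called *Idi1* in neither line (adjusted p = 0.0618 and 0.111). Of the 50-base stretches of its transcript, 30.5% also occur in another gene, chiefly its pseudogene *Gm13502*, and the authors counted uniquely mapped reads only.

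*Fdft1* encodes squalene synthase, which commits the pathway to sterols (chr14:63145150-63179578, minus strand). It was 49.8 and 62.6 CPM in untreated scr and 85.4 and 78.1 CPM in the *Baf180* KD, a log2 fold change of 0.55 (SE 0.13, adjusted p = 0.00467). This call was lost without *Baf180* NT replicate 1 (0.46, adjusted p = 0.0771). It was not called in the untreated *Baf250a* KD (0.28, SE 0.13, adjusted p = 0.0746) or *Brd9* KD (0.19, SE 0.13, adjusted p = 0.3), and without scr NT replicate 2 it was called in *Baf250a* (0.45, adjusted p = 0.000141). It was also called higher in *Baf250a* with the GC and length correction (0.43, adjusted p = 0.00156). *Fdft1* overlaps *Ctsb* on the opposite strand, and the authors counted by strand.

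*Sqle* encodes squalene epoxidase (chr15:59315077-59331192, plus strand), and was not called in any untreated KD. Its level was 191 and 198 CPM in untreated scr, 220 and 195 in *Baf180*, 178 and 164 in *Baf250a* and 191 and 182 in *Brd9* KD cells. The *Baf180* and scr replicates overlapped. The log2 fold changes were 0.11 (SE 0.10), -0.19 (SE 0.10) and -0.05 (SE 0.09) in *Baf180*, *Baf250a* and *Brd9*. Without scr NT replicate 1, *Sqle* was called lower in the *Baf250a* KD (-0.22, adjusted p = 0.0355).

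*Lss*, the gene of lanosterol synthase, which closes the sterol rings (chr10:76531588-76557138, plus strand), separated *Baf180* from *Baf250a*. It was 44.0 and 52.9 CPM in untreated scr, 80.5 and 74.6 CPM in the *Baf180* KD and 46.3 and 41.4 CPM in the *Baf250a* KD. The log2 fold change was 0.69 in *Baf180* (SE 0.12, adjusted p = 0.000865) and -0.15 in *Baf250a* (SE 0.12, adjusted p = 0.324). *Lss* was called lower in *Baf250a* with the GC and length correction (-0.29, adjusted p = 0.0296). In the *Brd9* KD it was 58.9 and 61.4 CPM, above both controls, with a log2 fold change of 0.33 (SE 0.12, adjusted p = 0.072). Leaving out scr NT replicate 2 gave a call in *Brd9* (0.46, adjusted p = 0.0208), and leaving out scr NT replicate 1 gave a lower call in *Baf250a* (-0.27, adjusted p = 0.021).

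*Cyp51* encodes the demethylase that acts on lanosterol (chr5:4081145-4104746, minus strand) and had its highest untreated mean in the *Baf250a* KD. It was 94.9 and 90.3 CPM in untreated scr, 166 and 158 in *Baf180*, 192 and 176 in *Baf250a* and 106 and 112 in *Brd9* KD cells. No line overlapped another. The log2 fold change was 0.82 in *Baf180* (SE 0.10, adjusted p = 7.65e-05) and 0.99 in *Baf250a* (SE 0.10, adjusted p = 4.82e-06), while *Brd9* at 0.26 (SE 0.10, adjusted p = 0.0876) was not called.

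*Insig1* encodes the protein that retains SCAP and SREBP2 and is itself a target of SREBPs (chr5:28071363-28078662, plus strand). It was 67.4 and 63.5 CPM in untreated scr, 145 and 143 in *Baf180*, 77.3 and 70.1 in *Baf250a* and 87.5 and 90.5 in *Brd9* KD cells. The *Baf180* libraries were more than 2-fold above scr, a log2 fold change of 1.15 (SE 0.10, adjusted p = 6.08e-06). *Brd9* was also called (0.46, SE 0.10, adjusted p = 0.0141), but not without *Brd9* NT replicate 1 (0.49, adjusted p = 0.0739) or 2 (0.40, adjusted p = 0.16). *Baf250a* was not called (0.17, SE 0.11, adjusted p = 0.186), but was called higher with the GC and length correction (0.25, adjusted p = 0.0217).

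*Srebf2* itself (chr15:82147181-82205379, plus strand) was not called in any untreated KD. It was 453 and 516 CPM in scr, 552 and 515 in *Baf180*, 484 and 452 in *Baf250a* and 512 and 468 in *Brd9* KD cells. The replicates of each KD overlapped the range of the controls. The log2 fold changes were 0.16 (SE 0.11, adjusted p = 0.279) in *Baf180*, -0.05 (SE 0.10, adjusted p = 0.694) in *Baf250a* and 0.03 (SE 0.10, adjusted p = 0.819) in *Brd9*. With a correction for GC content and length, *Srebf2* was called higher in the *Baf180* KD (0.21, adjusted p = 0.0388).

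**Figure D1:**
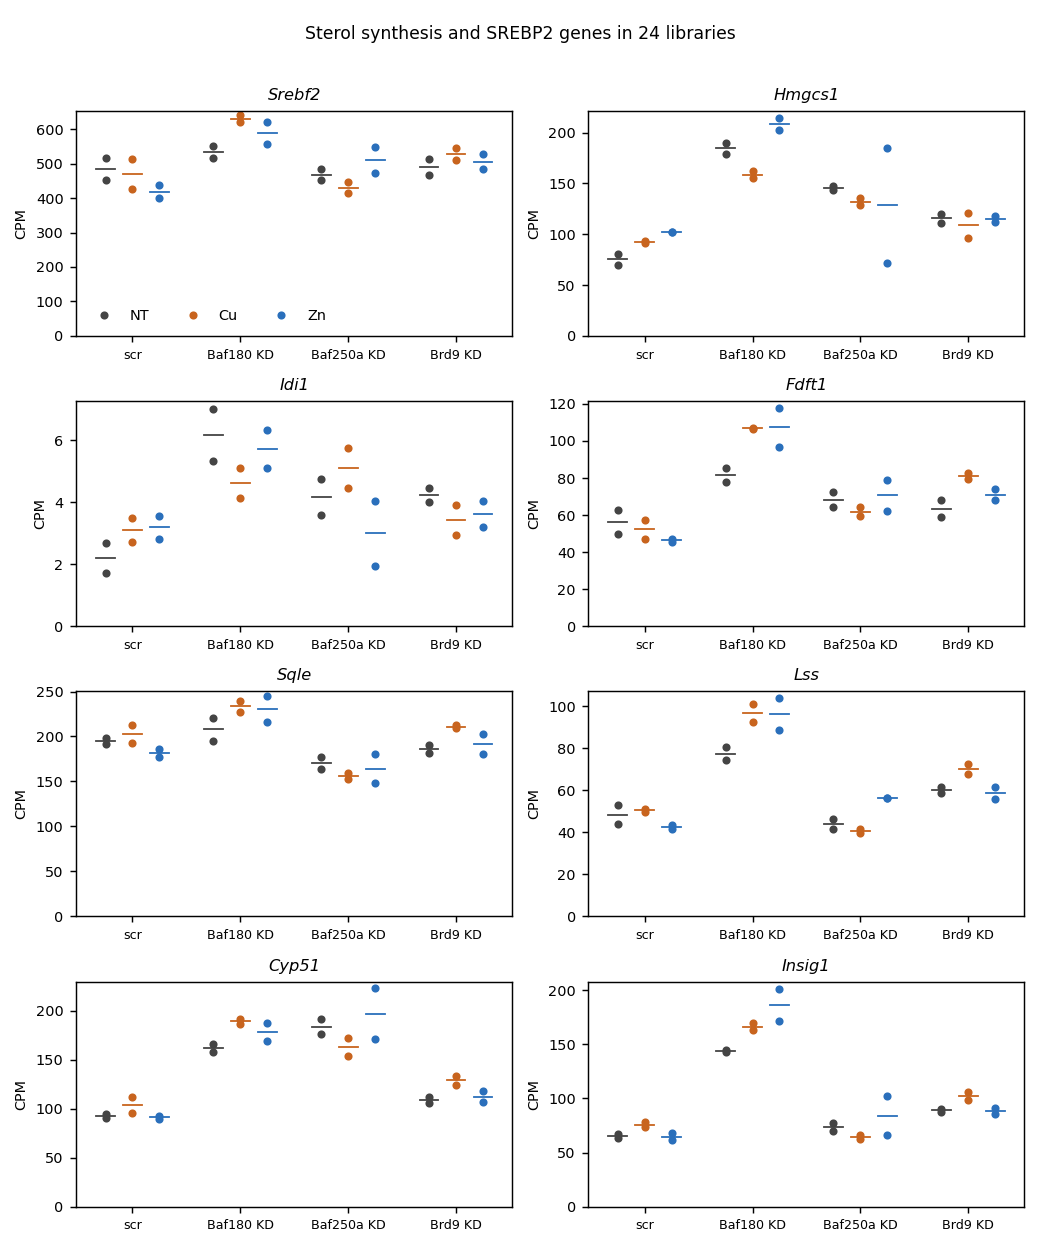
CPM values of the 8 members in every library, by line and treatment, with 1 point per library and a bar at the mean of the 2 replicates. *Hmgcs1*, *Fdft1*, *Lss*, *Cyp51* and *Insig1* lie above scr in all *Baf180* KD libraries, while *Sqle* overlaps the 177 to 213 CPM range of scr in every KD line.

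Fewer members rose in the other untreated lines. In the *Baf250a* KD, 3 members were called higher (*Hmgcs1*, *Idi1*, *Cyp51*) and 0 lower, where 28.9% of all genes were called higher and 28.9% lower. The members' median log2 fold change was 0.23 against 0.00 over all genes. In the *Brd9* KD, 3 members were called higher (*Hmgcs1*, *Idi1*, *Insig1*) and 0 lower, where 15.1% of all genes were called higher, with a median of 0.29 against 0.01.

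The KD lines were also compared with each other without metal, in 3 comparisons added after the data had been seen, with p-values adjusted over all genes in each. Against the *Baf250a* KD, the *Baf180* KD was higher in 5 members and lower in 0, where 18.3% of all genes were called higher. *Insig1* (log2 difference 0.99, SE 0.08, adjusted p = 5.95e-06) and *Lss* (0.84, SE 0.09, adjusted p = 3.86e-05) had the largest differences of these 5, ahead of *Hmgcs1* (0.37, SE 0.07, adjusted p = 0.00248), and *Idi1* was not called (0.59, adjusted p = 0.0634). *Sqle* (0.30, adjusted p = 0.0129) and *Fdft1* (0.28, adjusted p = 0.0314) were also called, but not without *Baf180* NT replicate 1 (0.18 and 0.17) or *Baf250a* NT replicate 2 (0.24 and 0.18). *Cyp51* was not called between these lines (-0.16, SE 0.08, adjusted p = 0.122), but was lower in *Baf180* without its NT replicate 1 (-0.23, adjusted p = 0.0391). Other calls gained were *Idi1* without that library (0.74) or *Baf250a* NT replicate 2 (0.79) and *Srebf2* without *Baf180* NT replicate 2 (0.23).

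Against the *Brd9* KD, the *Baf180* KD was also higher in 5 members, where 9.42% of all genes were called higher. These were *Insig1* (0.70, SE 0.08, adjusted p = 0.000761), *Hmgcs1* (0.68, SE 0.09, adjusted p = 0.0012), *Cyp51* (0.57, SE 0.08, adjusted p = 0.00237), *Lss* (0.37, SE 0.09, adjusted p = 0.0247) and *Fdft1* (0.37, SE 0.09, adjusted p = 0.0321). The *Lss* call was lost without *Baf180* NT replicate 1 (0.33) or either *Brd9* NT library (0.32 and 0.39), and the *Fdft1* call without *Baf180* NT replicate 1 (0.32) or *Brd9* NT replicate 2 (0.26). Between *Baf250a* and *Brd9*, 2 members were higher in *Baf250a*, where 23.2% of all genes were, and 2 were lower, where 24.3% were. *Cyp51* (0.73, SE 0.09, adjusted p = 9.26e-07) and *Hmgcs1* (0.31, SE 0.09, adjusted p = 0.0068) were higher, and *Lss* (-0.47, SE 0.10, adjusted p = 0.000575) and *Insig1* (-0.29, SE 0.09, adjusted p = 0.0144) were lower. Leaving out a *Baf250a* library ended 2 of these calls, *Hmgcs1* without replicate 1 (0.28) and *Insig1* without replicate 2 (-0.21).

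**Figure D2:**
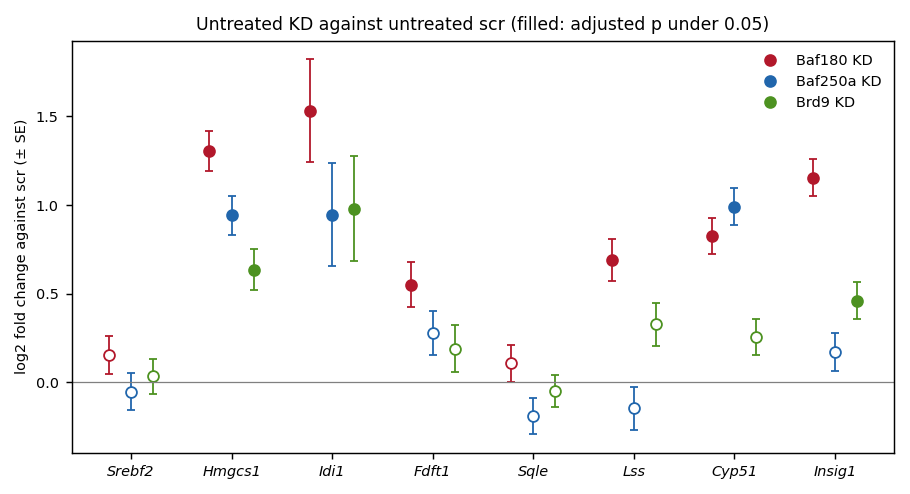
Log2 fold change of each member in each untreated KD against untreated scr, with error bars of 1 SE and filled points for calls at an adjusted p under 0.05. All *Baf180* points except *Srebf2* (0.16) and *Sqle* (0.11) are filled, the *Baf250a* point is highest for *Cyp51* (0.99), and *Sqle* and *Srebf2* lie near 0 in all lines.

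The steps of the pathway that the members do not cover were read from lists of related genes. Of the 6 further mevalonate genes listed, 3 rose in the untreated *Baf180* KD (median log2 fold change 0.31), 1 rose and 3 fell in *Baf250a* (median -0.29) and 1 rose in *Brd9* (median -0.01). All genes called higher made up 21.7%, 28.9% and 15.1% of those tested in the 3 comparisons, and all genes called lower 19.3%, 28.9% and 14.1%. *Acat2*, the gene of an acetoacetyl-CoA thiolase at the entry of the pathway, rose by a log2 fold change of 0.66 in *Baf180* (SE 0.12, adjusted p = 0.00107), with 0.32 for the mevalonate kinase gene *Mvk* (SE 0.12, adjusted p = 0.0459). The 3 genes that fell in untreated *Baf250a* were *Pmvk* (-0.65), *Fdps* (-0.51) and *Mvd* (-0.39), which act between mevalonate and squalene synthase. With Cu their *Baf250a* libraries also lay below scr. With Zn and without the shallow library they did not fall (*Pmvk* 0.93, *Mvd* 0.68 and *Fdps* 0.03). *Ggps1*, which diverts the intermediates to geranylgeranyl groups, rose in all 3 lines without metal (0.55, 0.81 and 0.59) but in none of them with Zn. With Cu it was below scr in *Baf180* (21.2 and 23.4 against 28.6 and 29.7 CPM), overlapped scr in *Brd9* and was not called higher in *Baf250a*. In scr it went from 23.3 and 18.0 CPM without metal to 37.7 and 36.8 with Zn. With Zn it was 18.9 and 23.7 in *Baf180*, and was called lower in *Baf180* (-0.85, SE 0.11) and *Baf250a* (-0.58, SE 0.12, and -0.60 without the shallow library). The Zn fold changes of all genes in scr fell with GC content (Spearman -0.70 across genes), and *Ggps1* has 40.1%. The part of this trend was not tested.

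After squalene, all 7 further enzyme genes listed rose in the *Baf180* KD (median 0.66), 5 in *Baf250a* (median 0.33) and 3 in *Brd9* (median 0.36), and 0 fell in any line. Of all genes, 21.7%, 28.9% and 15.1% were called higher and 19.3%, 28.9% and 14.1% lower. *Sc5d*, the sterol desaturase gene, was 31.7 and 31.1 CPM in untreated scr and 69.3 and 62.2 in the *Baf180* KD, and rose by 1.08 (SE 0.11), 0.93 (SE 0.11) and 0.92 (SE 0.11) on the log2 scale in *Baf180*, *Baf250a* and *Brd9*. Over all treatments it ran from 31.1 to 45.5 CPM in scr and from 47.9 to 69.3 CPM in the KD lines, without overlap. *Msmo1*, the methyl oxidase gene after *Cyp51*, rose by 0.83, 0.43 and 0.52. *Nsdhl*, which acts with *Msmo1* in removing methyl groups from the sterol, rose by 0.81 in *Baf180* and 0.39 in *Brd9*, and the isomerase gene *Ebp* by 0.59 in *Baf250a*.

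**Figure D3:**
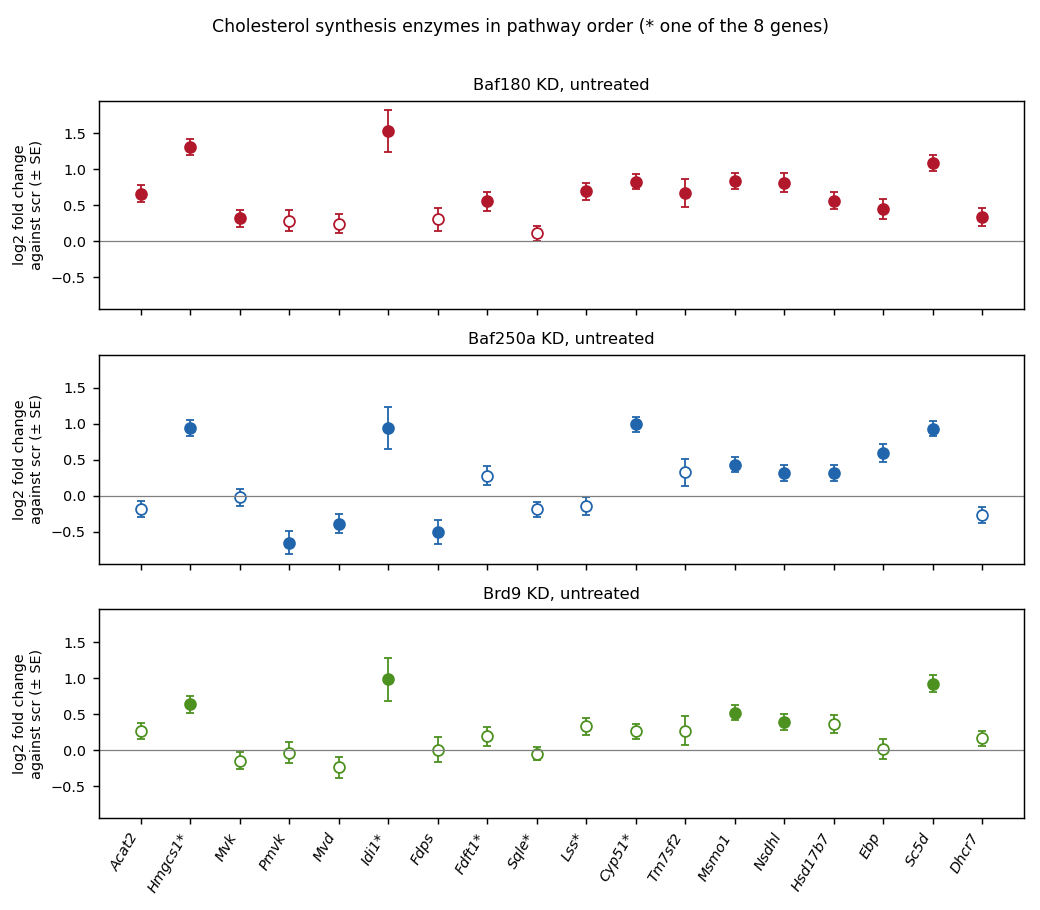
Log2 fold change against scr without metal for the enzyme genes in pathway order (not every step is shown), from *Acat2* to *Dhcr7*, in 1 panel per KD line, with error bars of 1 SE and filled points for calls at an adjusted p under 0.05. Values after squalene are above 0 for all genes in *Baf180*, and *Pmvk*, *Mvd* and *Fdps* lie below 0 in *Baf250a*.

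The listed genes that hold or process SREBPs moved in both directions. Their counts lay near or below the shares of all genes and are not read as a result of the list. Of the 12 genes listed, 11 were tested, and 1 rose and 2 fell in each untreated KD, with medians of 0.03, 0.01 and -0.03 in *Baf180*, *Baf250a* and *Brd9*. Of all genes, 21.7%, 28.9% and 15.1% were called higher and 19.3%, 28.9% and 14.1% lower. *Srebf1*, which encodes the related SREBP1, and *Scap* were not called in any untreated KD (*Srebf1* 0.24, 0.15 and 0.20, *Scap* 0.19, 0.01 and 0.04). *Insig2*, the second INSIG gene, fell in each untreated KD, while *Insig1* rose in *Baf180* and *Brd9* and was not called in *Baf250a*. *Insig2* was 79.9 to 87.4 CPM over the 6 scr libraries, 33.8 to 42.6 in *Baf180*, 39.9 to 54.4 in *Baf250a* and 37.4 to 45.6 in *Brd9* KD libraries, so no KD library overlapped scr. Without metal its log2 fold change was -1.05 (SE 0.11, adjusted p = 1.61e-05), -0.87 (SE 0.10, adjusted p = 1.44e-05) and -0.96 (SE 0.10, adjusted p = 0.000577). *Ube2g2*, an enzyme of the endoplasmic reticulum degradation route, also fell in all 3 lines without metal (-0.76, -0.998 and -0.69). Its scr libraries were 123.6 and 147.3 CPM without metal but 93.3 and 86.7 with Zn. The Zn-treated KD libraries were 84.1 and 82.4 in *Baf180*, 90.3 and 83.6 in *Baf250a* and 87.8 and 73.3 in *Brd9*. The gene that rose without metal was *Mbtps2*, a protease gene of SREBP cleavage, in *Baf180* (0.47) and *Rnf139*, a ubiquitin ligase gene, in *Baf250a* (0.67) and *Brd9* (0.40). With metal *Mbtps2* in *Baf180* lay below scr. It was 27.3 and 32.4 against 37.3 and 43.7 CPM with Cu, and 32.7 and 38.8 against 50.45 and 51.3 with Zn. *Rnf139* overlapped scr with Zn in both lines.

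Of 6 uptake and transport genes listed, 3 rose and 1 fell in the untreated *Baf180* KD, 3 rose and 1 fell in *Baf250a*, and 1 rose and 0 fell in *Brd9*, with medians of 0.29, 0.30 and 0.11. Of all genes, 21.7%, 28.9% and 15.1% were called higher and 19.3%, 28.9% and 14.1% lower. *Stard4*, a cytosolic sterol carrier, ran from 23.4 to 27.8 CPM over the 6 scr libraries, 44.6 to 55.2 in *Baf180*, 32.6 to 40.1 in *Baf250a* and 32.4 to 39.3 in *Brd9* KD libraries. All KD libraries lay above all scr libraries, and the *Baf180* libraries above those of the other KD lines. Without metal it rose by 1.06 (SE 0.12, adjusted p = 3.72e-05), 0.67 (SE 0.11, adjusted p = 0.000296) and 0.68 (SE 0.12, adjusted p = 0.00509) on the log2 scale. *Npc2*, whose product moves cholesterol out of lysosomes, rose in *Baf180* (0.86, SE 0.11) and *Baf250a* (0.997, SE 0.11), as did *Lipa*, the lysosomal acid lipase gene (0.48 and 0.93), while *Scarb1*, the HDL receptor gene, fell in *Baf180* (-0.35) and *Baf250a* (-0.85). With metal *Scarb1* in *Baf180* lay above scr. It was 67.7 and 69.3 against 58.15 and 53.2 CPM with Cu, and 65.6 and 59.9 against 54.2 and 50.5 with Zn.

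Genes of cholesterol efflux were called higher as well. Of 8 efflux, LXR and esterification genes, 7 were tested, of which 6 rose and 1 fell in untreated *Baf180*, 6 rose and 0 fell in *Baf250a*, and 5 rose and 1 fell in *Brd9*. Of all genes, 21.7%, 28.9% and 15.1% were called higher and 19.3%, 28.9% and 14.1% lower. *Nr1h3*, *Ch25h* and *Abca1* were at or below 0.255, 0.128 and 0.446 CPM in untreated scr and passed the expression filter through the KD libraries. A fall could not have been seen for these genes, so the counts of this list are not read as a result. The list's medians of 1.99, 1.89 and 2.53 are the values of *Nr1h3*, so they are not compared with the members' medians. *Abca1*, the cholesterol exporter, was 0.372 to 0.652 CPM in scr, 7.89 to 13.1 in *Baf180*, 13.6 to 32.4 in *Baf250a* and 3.19 to 5.37 in *Brd9* KD libraries. It rose without metal by 4.96 (SE 0.28), 6.27 (SE 0.22) and 3.33 (SE 0.36) on the log2 scale. Between *Baf180* and *Baf250a* libraries, *Abca1* was higher in all of the latter and *Insig1* in all of the former. The exporter gene *Abcg1* rose by 2.65, 2.89 and 2.78. *Nr1h3*, which encodes LXR alpha, rose by 1.99 (SE 0.52), 1.89 (SE 0.51) and 2.53 (SE 0.58) from a level of 0.244 CPM in untreated scr. *Ch25h*, which makes the oxysterol 25-hydroxycholesterol, was called higher in all 3 lines but was at or below 0.128 CPM in untreated scr, so its fold is not given. The gene that fell was *Nr1h2*, which encodes LXR beta, in *Baf180* (-0.29) and *Brd9* (-0.37).

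**Figure D4:**
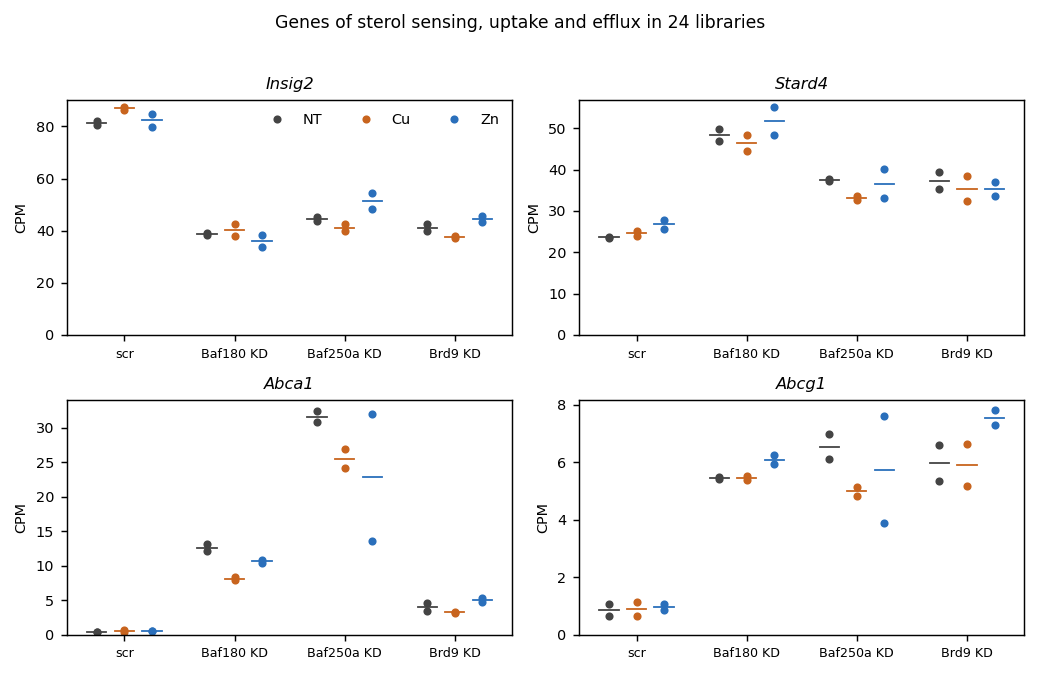
CPM values of *Insig2*, *Stard4*, *Abca1* and *Abcg1* in every library, by line and treatment, with 1 point per library and a bar at the mean of the 2 replicates. *Insig2* is lower and *Stard4*, *Abca1* and *Abcg1* are higher in all KD libraries than in all scr libraries.

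Of the 11 fatty acid synthesis genes, which SREBP1 mainly controls, 3 rose and 0 fell in untreated *Baf180*, 2 rose and 4 fell in *Baf250a*, and 2 rose and 0 fell in *Brd9*, with medians of 0.23, -0.13 and 0.16. Of all genes, 21.7%, 28.9% and 15.1% were called higher and 19.3%, 28.9% and 14.1% lower, so these counts are not read as a result of the list. The elongase gene *Elovl6* rose in *Baf180* (1.01, SE 0.14) and *Brd9* (1.12, SE 0.16) and was not called in *Baf250a* (0.26, SE 0.14). *Fads2*, a desaturase gene, fell in *Baf250a* (-0.80, SE 0.11).

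Under Cu, the *Baf180* KD kept the pattern against Cu-treated scr. There 5 members were called higher and 0 lower, where 14.2% of all genes were called higher and 10.7% lower. *Insig1* (1.13, SE 0.12, adjusted p = 4.64e-05), *Fdft1* (1.03, SE 0.13, adjusted p = 0.000242), *Lss* (0.93, SE 0.12, adjusted p = 0.000281), *Cyp51* (0.86, SE 0.12, adjusted p = 0.000513) and *Hmgcs1* (0.77, SE 0.12, adjusted p = 0.000661) rose. *Srebf2* was 514 and 426 CPM in Cu-treated scr against 642 and 620 in the KD, without overlap, and missed the threshold (0.42, SE 0.14, adjusted p = 0.0564), which it passed without scr Cu replicate 1 (0.55, adjusted p = 0.00782). *Idi1* (0.55, adjusted p = 0.168) and *Sqle* (0.20, adjusted p = 0.284) were not called either.

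Under Cu, the *Baf250a* KD had 2 members higher (*Cyp51* 0.67, SE 0.12 and *Hmgcs1* 0.53, SE 0.10), where 21.1% of all genes were called higher. It had 1 member lower, where 20.0% of all genes were called lower. That gene was *Sqle*, at 159 and 153 CPM against 213 and 193 in Cu-treated scr (-0.35, SE 0.10, adjusted p = 0.0286). Without Cu-treated *Baf250a* replicate 1, 0 members were called (*Cyp51* 0.59, *Hmgcs1* 0.50, *Sqle* -0.37), and without replicate 2 only *Cyp51* was. Without scr Cu replicate 1, 6 were called and without replicate 2, 7, with *Lss* lower (-0.27 and -0.30) and *Idi1* higher (0.55 and 0.91) in both. The *Brd9* KD had 3 members higher and 0 lower, where 6.94% of all genes were called higher and 5.27% lower (*Fdft1* 0.62, *Lss* 0.46 and *Insig1* 0.42). All 3 *Brd9* calls were lost when Cu-treated *Brd9* replicate 1 (0.64, 0.40 and 0.36) or 2 (0.58, 0.50 and 0.47) was left out, and *Srebf2* (0.28) and *Cyp51* (0.41) were gained without scr Cu replicate 1.

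Under Zn, all 8 members were called higher in the *Baf180* KD, where 24.9% of all genes were called higher and 24.9% lower, with a median of 0.94. *Insig1* rose most (1.47, SE 0.08, adjusted p = 2.55e-06), at 201 and 172 CPM against 68.2 and 61.3 in Zn-treated scr. *Fdft1* rose by 1.14 (SE 0.09, adjusted p = 1.59e-05) and *Lss* by 1.12 (SE 0.08, adjusted p = 9.53e-06). *Srebf2* was called here, at 621 and 557 CPM against 438 and 399 (0.43, SE 0.07, adjusted p = 0.00111), and the replicates did not overlap. Over all genes, the Zn fold changes of this comparison rose with GC content (Spearman 0.43 across genes), and *Srebf2* has the highest GC content of the members, 57.9%. With the GC and length correction, its change was 0.07 (adjusted p = 0.243) and the other 7 members stayed called. *Idi1* was not called without scr Zn replicate 1 (0.60, adjusted p = 0.0914), nor *Sqle* without scr Zn replicate 2 (0.25, adjusted p = 0.0952).

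In the Zn-treated *Baf250a* KD, 5 members were called higher and 0 lower, where 29.4% of all genes were called higher and 28.1% lower. They were *Cyp51* (1.22, SE 0.09), *Fdft1* (0.73, SE 0.09), *Hmgcs1* (0.72, SE 0.10), *Insig1* (0.60, SE 0.09) and *Lss* (0.39, SE 0.10). This group holds the shallow library, in which *Hmgcs1* read 71.9 CPM against 185 in replicate 1. Without the shallow library the same 5 were called, at 1.26, 0.73, 0.82, 0.63 and 0.37, and *Srebf2* as well (0.14, adjusted p = 0.0439). With the shallow library alone, *Cyp51* and *Srebf2* (0.36, adjusted p = 0.00633) were called and *Hmgcs1* read -0.53. Without scr Zn replicate 1 or 2, which kept the shallow library, only *Cyp51* was called, with *Fdft1* at 0.66 and 0.63, *Hmgcs1* at 0.44 and 0.46, *Insig1* at 0.52 and 0.38 and *Lss* at 0.41 and 0.37. With the GC and length correction *Lss* was not called (0.15, adjusted p = 0.19).

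In the Zn-treated *Brd9* KD, 5 members were called higher and 0 lower, where 12.6% of all genes were called higher and 10.6% lower. They were *Fdft1* (0.58, SE 0.07), *Lss* (0.44, SE 0.07), *Insig1* (0.42, SE 0.08), *Cyp51* (0.28, SE 0.07) and *Srebf2* (0.25, SE 0.07, adjusted p = 0.0465). *Srebf2* and *Cyp51* were not called without scr Zn replicate 1 (0.30 and 0.28) or 2 (0.18 and 0.25), nor were *Lss* (0.40, adjusted p = 0.0851) and *Insig1* (0.34, adjusted p = 0.174) without scr Zn replicate 2. With the GC and length correction *Srebf2* was not called (0.04, adjusted p = 0.582).

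Over the 6 libraries of a line, whatever the metal, 6 members lay wholly above the 6 scr libraries in the *Baf180* KD (*Hmgcs1*, *Idi1*, *Fdft1*, *Lss*, *Cyp51* and *Insig1*), as did 14.6% of all genes. In *Baf250a* it was 1 member, *Cyp51*, against 14.0% of all genes, and in *Brd9* 2 members, *Lss* and *Insig1*, against 9.33%. Without the shallow library, *Hmgcs1* (128 to 185 CPM against 70.2 to 102 in scr) and *Idi1* (3.60 to 5.75 CPM against 1.72 to 3.57) also lay wholly above scr in *Baf250a*. *Idi1* did so by a narrow margin. The share of all genes without that library was not computed, so this is not read as a result about the members. The members' summed level was 920 to 1122 CPM in scr, 1351 to 1698 in *Baf180*, 1052 to 1302 in *Baf250a* and 1096 to 1241 in *Brd9* libraries, so the *Baf180* KD did not overlap scr, and the other lines did.

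Within a line, few members were called in response to metal. In scr, Cu changed 0 members, where 0.0333% of all genes were called. At an unadjusted p under 0.05 there was 1 member, and DESeq2 called 0. Zn changed 1 member in scr, where 17.6% of all genes were called. It was *Hmgcs1*, which went from 80.8 and 70.2 CPM to 102 in both Zn libraries (0.52, SE 0.10, adjusted p = 0.028). This call was lost without scr NT replicate 2 (0.40), scr Zn replicate 1 (0.53) or scr Zn replicate 2 (0.51), and with the GC and length correction. The Zn fold changes of all genes in scr fell with GC content (Spearman -0.70 across genes), and the GC content of *Hmgcs1* is 43.1%.

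In the *Baf180* KD, Cu changed 1 member, where 13.8% of all genes were called. *Fdft1* went from 85.4 and 78.1 to 107 CPM in both Cu libraries (0.35, SE 0.10, adjusted p = 0.0392), and the call was lost without any of the 4 libraries (0.31 to 0.40). Zn changed 0 members in *Baf180*, where 0.0197% of all genes were called, 3 members had an unadjusted p under 0.05, and DESeq2 called 0. Same-numbered *Baf180* libraries deviated together (correlations of 0.13 to 0.25), and with a replicate block the counts in *Baf180* were 4 for Cu and 3 for Zn, or 1 and 0 when the GC and length correction was added. *Insig1* had a log2 fold change of 0.35 (SE 0.09, adjusted p = 0.289) there, at 201 and 172 CPM with Zn against 145 and 143 without.

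In the *Baf250a* KD, Cu changed 0 members, where 1.27% of all genes were called. There were 0 at an unadjusted p under 0.05 and 0 by DESeq2. Zn changed 2, where 15.9% were called: *Insig1* (0.39, SE 0.11, adjusted p = 0.0168) and *Lss* (0.36, SE 0.12, adjusted p = 0.0377). Without the shallow library *Insig1* (0.46, adjusted p = 0.000895), *Lss* (0.35, adjusted p = 0.0217), *Hmgcs1* (0.34, adjusted p = 0.00386) and *Cyp51* (0.27, adjusted p = 0.0273) were called, a comparison in which the lone Zn library is assumed to vary like the other groups. With the shallow library alone, *Hmgcs1* was called lower (-0.99, adjusted p = 0.0136) and *Insig1* read -0.14. The *Lss* call was also lost without *Baf250a* NT replicate 1 (0.45) or 2 (0.28), and the *Insig1* call without NT replicate 2 (0.31). In the *Brd9* KD, Cu changed 0 members, where 0.274% of all genes were called, and Zn changed 0, where 0.0334% were. At an unadjusted p under 0.05 there were 2 for Cu and 0 for Zn, and DESeq2 called 0 for either metal. These libraries did respond to Zn elsewhere, since the metallothionein gene *Mt2* rose by 3.40 in scr, 1.71 in *Baf180*, 1.10 in *Baf250a* and 2.12 in *Brd9* on the log2 scale, called in each line.

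**Figure D5:**
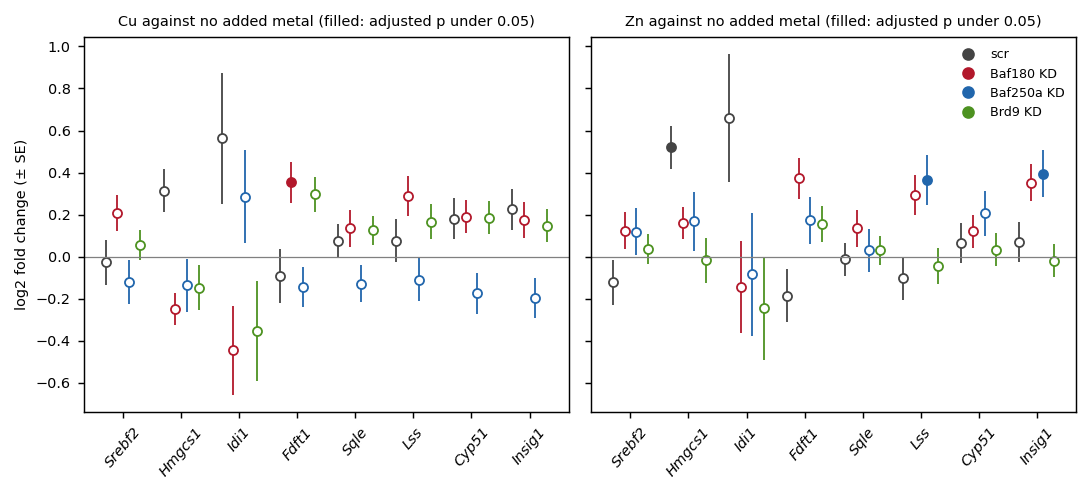
Log2 fold change of each member with Cu or Zn against NT within each line, with error bars of 1 SE and filled points for calls at an adjusted p under 0.05. Points lie between -0.45 and 0.66, and the 4 filled ones are *Hmgcs1* in scr with Zn, *Fdft1* in *Baf180* with Cu, and *Insig1* and *Lss* in *Baf250a* with Zn.

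Whether a KD changed the response to metal was tested as the difference of the response from that in scr. For Zn in *Baf180*, 2 members differed, where 28.7% of all genes were called. *Fdft1* had a log2 response of 0.37 in the KD and -0.19 in scr in the fits of each line, and the difference in the joint fit was 0.67 (SE 0.18, adjusted p = 0.00889). *Lss* responded by 0.29 and -0.10, with a difference of 0.51 (SE 0.14, adjusted p = 0.0132). Both calls depended on single libraries. The *Fdft1* call was lost without scr NT replicate 2 (0.48, adjusted p = 0.0993), *Baf180* NT replicate 2 (0.60, adjusted p = 0.0515) or *Baf180* Zn replicate 1 (0.52, adjusted p = 0.0746), and with the GC and length correction (0.35, adjusted p = 0.129). The *Lss* call was lost without scr NT replicate 2 (0.35), scr Zn replicate 2 (0.47), *Baf180* NT replicate 2 (0.44) or *Baf180* Zn replicate 1 (0.39). *Srebf2* was called without scr NT replicate 1 (0.44) and *Insig1* without *Baf180* Zn replicate 2 (0.49). Across all genes the difference rose with GC content (Spearman 0.65 across genes), and whether this trend had a part in the calls was not tested beyond the correction.

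For Zn in *Baf250a*, 1 member differed, where 30.5% of all genes were called. It was *Lss*, with a difference of 0.55 (SE 0.16, adjusted p = 0.0114), and 0.55 without the shallow library (adjusted p = 0.0156). This call was lost without scr NT replicate 2 (0.41), scr Zn replicate 2 (0.52), *Baf250a* NT replicate 2 (0.42) or *Baf250a* Zn replicate 1 (0.54, adjusted p = 0.252). It was also lost with the GC and length correction (0.42, adjusted p = 0.0643). Other calls were gained by leaving out a library, namely *Fdft1* without scr NT replicate 1 (0.58), *Insig1* without the shallow library (0.48) and *Hmgcs1* with the shallow library alone (-1.46). For Zn in *Brd9*, 0 members differed, where 11.1% of all genes were called. For Cu the counts were 0 in *Baf180*, where 12.8% were called, 0 in *Baf250a*, where 0.0121% were, and 0 in *Brd9*, where 0.0363% were. At an unadjusted p under 0.05 there were 2 members for Zn in *Brd9*, 3 for Cu in *Baf180*, 2 for Cu in *Baf250a* and 2 for Cu in *Brd9*. DESeq2 called 0 members in these comparisons except *Fdft1* for Cu in *Baf180* (0.47, adjusted p = 0.041). By leaving out scr NT replicate 1 or scr Cu replicate 1, the edgeR test called *Fdft1* (0.65 and 0.64) and *Idi1* (-1.29 and -1.11) for Cu in *Baf180*, and by leaving out scr NT replicate 1 it called *Fdft1* for Zn in *Brd9* (0.59).

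The genes whose levels followed the members most closely were ranked by Pearson correlation with the mean standardized log2 CPM of the 8 members over the 24 libraries, among 10414 genes. The closest were *Isyna1* (0.96), *Rhbdf1* (0.96), *Spn* (0.95), *Epn2* (0.95), *Lbr* (0.93) and *Acat2* (0.93). *Lbr* encodes a nuclear envelope protein that is also a sterol reductase, and *Acat2* the enzyme at the entry of the mevalonate pathway. *Nsdhl* ranked 17, and *Insig2* had a correlation of -0.72. The points share their 4 lines and their libraries' depth, so these values mostly describe differences between lines. After each line's mean was subtracted, the closest genes were *Lsg1* (0.88), *Psmc2* (0.86), *Sdf2l1* (0.86), *Sumo3* (0.85), *Mthfd1l* (0.84) and *Tm9sf1* (0.84), none of which is in the first list. Among the members, the 28 pairs had correlations from 0.06 to 0.95 with a median of 0.67, and from -0.79 to 0.89 with a median of 0.51 after subtracting line means.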

How the data were processed

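RNA of 24 libraries was rRNA-depleted by RNase H digestion and built into stranded libraries. The authors aligned reads to mm10 with STAR, kept unique alignments, and made the deposited table of raw counts per gene with featureCounts, counting pairs by strand. The annotation version is not given in the sources used here. The deposited counts were tested with edgeR 4.0.16 in R 4.3.3 (TMM, filterByExpr, quasi-likelihood test), with p-values adjusted by Benjamini-Hochberg over all genes tested and a threshold of 0.05. Each KD was compared with scr over 4 libraries, each metal with NT over the 6 libraries of a line, and the differences of responses over all 24 libraries. CPM used each library's total over the 16524 genes kept over 24 libraries, scaled by TMM. Per-length values divided CPM by GENCODE exon lengths on GRCm38. Library totals ran from 495778 to 75179394 counts, and the number of replicates and this depth limit the precision. Counting error was part of the model, and no interval was computed for a lone library.

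The members and lists were chosen with earlier results of these data known, and the 3 comparisons between KD lines were added after seeing the data. Named genes were the 8 members, *Srebf1*, *Insig2* and *Scap*, and up to 3 called genes with the largest change per list and untreated KD. *Mvd*, *Nr1h2*, *Nr1h3* and *Scarb1* in *Baf180*, *Dhcr7* with Zn, and the muscle markers given singly were named after their values were seen. So were the values with metal of *Ggps1*, *Pmvk*, *Mvd*, *Fdps*, *Ube2g2*, *Mbtps2*, *Rnf139* and *Scarb1*. Some genes of these lists are not reported here, and list counts and figures leave them out. Alternatives were RLE size factors, no filter (all genes with at least 1 count), DESeq2 1.42.0, more or fewer libraries in the fit, a correction for GC content and length (splines with 5 degrees of freedom), a replicate block, both together, and leaving out each library. Tested on simulated data, the untreated KD fits called 92.5% to 93.5% of the 200 genes given a log2 change of 1, and the Zn difference in *Baf180* called 76%.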

Additional observations from a re-analysis of the deposited data

Results flagged for a closer look

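The difference of the Zn response from scr was called for 2 of 8 members in *Baf180* and 1 of 8 in *Baf250a*. Of all genes, 28.7% and 30.5% were called, so these calls are not read as a result about the members. Each call was lost when certain single libraries were left out. For *Fdft1* the Zn response in the *Baf180* KD exceeded that in scr by 0.67 on the log2 scale (SE 0.18, edgeR adjusted p = 0.00889). The scr libraries were 49.8 and 62.6 CPM without metal and 47.3 and 45.7 CPM with Zn, and the *Baf180* libraries were 85.4 and 78.1 CPM without and 118 and 96.6 CPM with Zn. With the GC and length correction the value was 0.35 (adjusted p = 0.129).

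For *Lss* the Zn response in the *Baf180* KD exceeded that in scr by 0.505 (SE 0.14, adjusted p = 0.0132). Its levels went from 44.0 and 52.9 to 43.4 and 41.7 CPM in scr, and from 80.5 and 74.6 to 104 and 88.9 CPM in the KD. With the GC and length correction the value was 0.48 (adjusted p = 0.0398).

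For *Lss* in the *Baf250a* KD the difference was 0.55 (SE 0.16, adjusted p = 0.0114), with 46.3 and 41.4 CPM without metal and 56.4 CPM in both Zn libraries. Without the shallow Zn library it was 0.55 (adjusted p = 0.0156), and with the GC and length correction 0.42 (adjusted p = 0.0643). The 3 differences share the scr libraries, and 28.7% and 30.5% of all genes were called in the comparisons of *Baf180* and *Baf250a*.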

How the results depend on the processing

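Counts of members called moved by more than 1.5 times as follows. In the untreated *Baf250a* KD (3 called), 6 were called with the GC and length correction and 7 with that correction and a replicate block. In *Baf250a* with Cu (3), 5 were called with all 24 libraries in the fit and 5 with the correction. In *Baf250a* with Zn (5), DESeq2 called 1, and the block called 2 with or without the correction. In *Brd9*, the block called 1 with Cu (3 in the edgeR test), and DESeq2 called 3 with Zn (5). For Zn in scr (1), all libraries, the block, the correction and both together called 0. For Cu in *Baf180* (1), no filter, DESeq2 and all libraries called 2, and the block called 4. For Zn in *Baf180* (0), no filter called 2 and the block called 3. For Zn in *Baf250a* (2), RLE factors and no filter called 1, and DESeq2, all libraries, the block, the correction and both together called 0. For the difference of the Cu response in *Baf180* (0), no filter, DESeq2, 12 libraries and the block each called 1. For that of Zn in *Baf180* (2), no filter, 12 libraries, the correction and both together each called 1. For that of Zn in *Baf250a* (1), no filter, the correction and both together called 0, and for that of Zn in *Brd9* (0), no filter called 1. Between KD lines, all 24 libraries called 3 for *Baf180* against *Baf250a* (5) and 2 for *Baf250a* against *Brd9* (4). The cause was not tested in any of these.

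With 1 library left out, the counts ranged from 2 to 5 (untreated *Baf250a*), 0 to 7 (*Baf250a* with Cu), 1 to 6 (*Baf250a* with Zn), 0 to 3 (untreated *Brd9*), 0 to 5 (*Brd9* with Cu), 1 to 5 (*Brd9* with Zn), 0 to 1 (Zn in scr), 0 to 0 (Cu in *Baf180*) and 0 to 4 (Zn in *Baf250a*). They ranged from 0 to 2, 0 to 3, 0 to 2 and 0 to 1 for the differences of Cu in *Baf180* and of Zn in *Baf180*, *Baf250a* and *Brd9*, and from 3 to 5 for *Baf180* against *Brd9*. *Hmgcs1* in Zn-treated *Baf250a* ranged from -0.53 to 0.82, and its Zn response there from -0.99 to 0.34. The Zn response of *Insig1* in *Baf250a* ranged from -0.14 to 0.46. The negative ends came from the shallow library alone. Over single members and comparisons, 917 values with a library left out kept direction and side of the threshold, 72 lost and 32 gained a call, and 3 reversed. Under the other settings the numbers were 1337, 61, 58 and 0.

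Replicate numbers are shared between groups, but same-numbered libraries deviated from their group means with correlations of -0.18 to 0.28. They exceeded 0.1 in all 3 pairs of *Baf180* groups and not in all pairs of any other line, and no label ties the numbers to a shared batch, so the libraries were not taken as paired. The replicate block kept the untreated *Baf180* count at 6, that of *Baf250a* at 3 and that of *Brd9* at 3. Depth limits mainly *Idi1*, which had 1 count in the shallow library.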

Other observations

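With metal present, further genes of the pathway were called between KD and scr. *Srebf1*, not called in any untreated KD, was called higher in all 3 lines with Cu (0.76, 0.34 and 0.42 on the log2 scale in *Baf180*, *Baf250a* and *Brd9*) and with Zn (0.79, SE 0.07, 0.54, SE 0.09 and 0.51, SE 0.07). Its untreated KD libraries (126.6 to 140.5 CPM) also lay above every scr library (at most 122.8 CPM). A call with metal and none without it does not show that metal changed the difference. *Scap*, the escort of SREBP2, was called higher with Zn in all 3 (0.61, 0.31 and 0.35) and with Cu in *Baf180* (0.48). *Insig2* was lower in all 6 metal comparisons (-1.12, -1.06 and -1.22 with Cu, -1.24, -0.77 and -0.92 with Zn). These comparisons share the scr libraries of each metal, in which *Srebf1* moved by -0.13 with Cu (adjusted p = 0.604) and by -0.27 with Zn (adjusted p = 0.0754) against NT, and the *Baf250a* Zn group includes the shallow library, without which *Srebf1* (0.48), *Scap* (0.26) and *Insig2* (-0.80) were still called. Over all genes the Zn comparisons trended with GC content (Spearman 0.43, 0.30 and 0.36 across genes), whose part in these values was not tested.

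Of the 7 enzyme genes listed after squalene beyond the members, 7, 2 and 2 rose with Cu in *Baf180*, *Baf250a* and *Brd9*, and of the 6 further mevalonate genes 5, 0 and 1, where 14.2%, 21.1% and 6.94% of all genes were called higher. With Zn, 7, 3 and 4 of the former and 5, 4 and 4 of the latter rose, where 24.9%, 29.4% and 12.6% of all genes did. None of the genes after squalene was called lower in these 6 comparisons. Of the mevalonate genes, 0, 2 and 0 fell with Cu, where 10.7%, 20.0% and 5.27% of all genes fell, and 1, 1 and 0 with Zn, where 24.9%, 28.1% and 10.6% did. The gene that fell with Zn was *Ggps1*. Without the shallow library, 3 genes after squalene rose and 1 fell (*Dhcr7*, -0.26) in Zn-treated *Baf250a*, and 4 mevalonate genes rose and 1 fell, where 30.3% of all genes were called higher and 30.0% lower. This setting for the listed genes was added after seeing the data, and the lone Zn library is assumed to vary like the scr libraries.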
